A study of Marchantia polymorpha subsp. ruderalis with 24 samples.

Results

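Messenger RNA of young thallus sampled 66 h after plants entered constant light was compared with that of thallus sampled 54 h after the same step. The sampling times name the members: the 3 libraries of 66 h and the 3 libraries of 54 h are 6 of the 24 libraries of a series that took 3 replicates every 6 h, at 8 times from 24 h to 66 h. The plants of both groups were wild-type Marchantia polymorpha subsp. ruderalis, a liverwort with a flat haploid body, of the male laboratory accession Takaragaike-1 (Tak-1). All were raised from gemmae, the clonal propagules of the thallus, on agar at 20 °C, with days of 12 h of cool white light (50 to 60 µmol photons per m² and s) and nights of 12 h. No group carried a mutation or received an agent. The tissue label names young thallus, while the extraction text speaks of frozen gemmae. The labels give neither the hour of the earlier light-dark cycle at which the plants were moved nor the number of plants in a sample. Nor do they tell if replicates came from separate cultures, so the p-values measure only how far these samples spread, a spread that may be technical.

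Both times lie on the second day of sampling and 12 h apart, at opposite phases of a 24 h cycle. The contrast therefore holds the phase and 12 h of further growth in constant light together, and within these 6 libraries they cannot be told apart. The libraries of 42 h and 30 h were taken 24 h earlier and share no library with the comparison. They show how the same genes differed on the first day. Phase here means the hour within a 24 h cycle, so 42 h and 30 h count as the same phases. Whether the rhythms of the plants kept to 24 h in constant light was not tested.

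Circadian clocks of plants are loops of transcription factors that repress each other at successive times of day, and they go on running in constant light. In Arabidopsis the pseudo-response regulators (PRR), the evening complex with ELF3 and ELF4, and GIGANTEA (GI) belong to them, and photoreceptors together with the DET1 and COP1 proteins carry light signals that reach them. Clock output in plants commonly includes genes of photosynthesis, pigment and phenolic metabolism, lipid oxidation and transport across membranes.

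At 66 h more genes were lower than higher relative to 54 h. Counts per gene were tested with edgeR's quasi-likelihood test with Benjamini-Hochberg adjustment, and a gene is called at an adjusted p under 0.05. Of 14414 tested genes 976 were called, or 6.77%, of which 311 (2.16%) were higher at 66 h and 665 (4.61%) were lower. The lower genes were thus 68.1% of those called. Among genes with a symbol, the falls included the B-box factor MpBBX1, the plastid sigma factor MpSIG5 and the pseudo-response regulator MpPRR, beside many polyphenol oxidases and class III peroxidases, and the rises included lipoxygenases and MpBBX6. Most changes were small. The median called rise was 1.44-fold and the median called fall 1.58-fold, on the log2 scale 0.53 and −0.66, while the median over all tested genes was 0.02. A change of at least 2-fold was reached by 41 of the higher and 128 of the lower genes, and one of at least 4-fold by 8 and 15. The 3 libraries of 66 h did not overlap those of 54 h for 304 of the 311 higher and 651 of the 665 lower genes. Over all tested genes this share was 22.3%. Genes were called on these same libraries, so a lack of overlap among called genes, here and below, is no separate support.

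The 66 h libraries held 59194999, 14929708 and 27678331 counts and the 54 h libraries held 29440474, 38069906 and 31450453. The first of these is the deepest and the second the shallowest of the whole series. One gene on the V chromosome, MpVg01240, took 4.27% of the counts in 66 h replicate 3 and 0.985 to 1.55% in the other 5 libraries. Correlations of log2 expression over all tested genes were 0.969 to 0.982 among the 66 h libraries, 0.960 to 0.985 among the 54 h libraries and 0.959 to 0.979 between the times. The number of calls depended on single libraries: 504 genes were called without 54 h replicate 3, 597 without 66 h replicate 1 and 640 without 54 h replicate 1, and 868 to 876 without any 1 of the others. The higher genes among these were 119 without 54 h replicate 3, 143 without 66 h replicate 1 and 177 without 54 h replicate 1, and the lower genes were 385 without 54 h replicate 3. Without the 3 libraries in which MpVg01240 took over 4 percent of the counts, a choice made after the data were seen, 288 genes were higher and 481 lower.

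**Figure D1:**
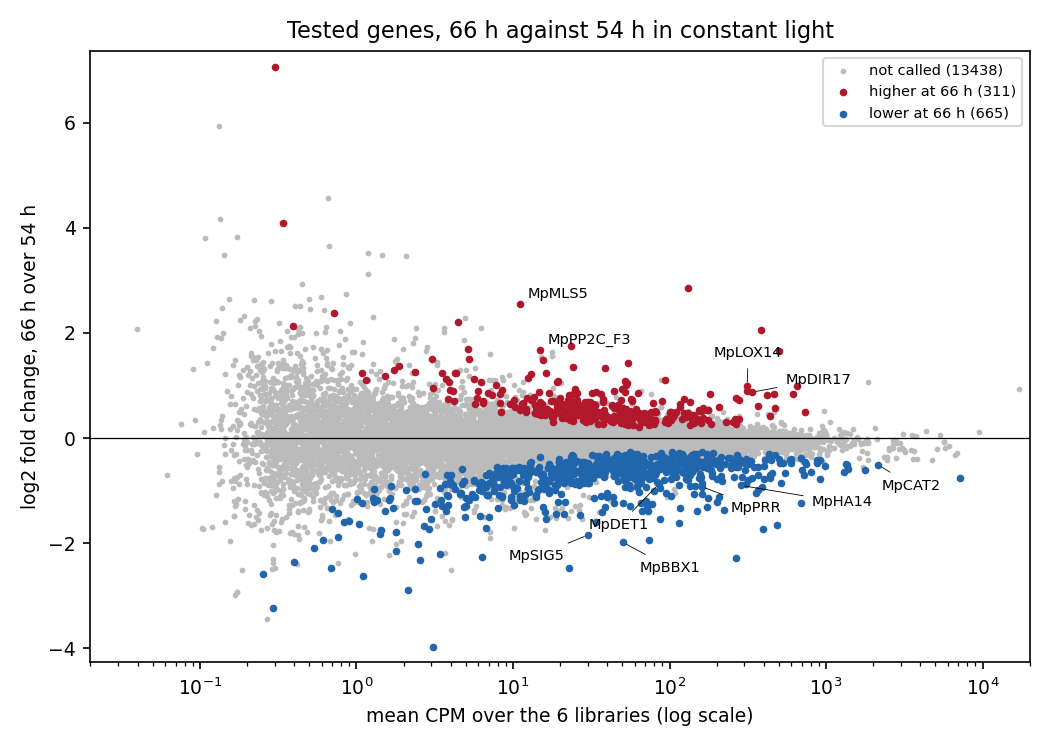
Log2 fold change of 66 h over 54 h (vertical) against the mean CPM (counts scaled by library size and TMM factor) over the 6 libraries (horizontal, log scale) for all tested genes; red points are the 311 genes called higher, blue points the 665 called lower and grey points those not called. Blue points outnumber red points, and MpBBX1 and MpSIG5 are the lowest of the labelled genes.

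Of the 8 clock genes with a symbol, MpPRR was the 1 that was called. Its level in CPM, which is the count scaled by library size and TMM factor, was 125, 94.3 and 113 in the 66 h libraries and 218, 199 and 213 in the 54 h libraries. No 66 h library reached a 54 h library. The fall was −0.92 ± 0.14 on the log2 scale (SE; edgeR adjusted p = 1.9e-04), or 1.90-fold. Through the 8 times from 24 h to 66 h the mean level of MpPRR was 66.1, 274, 226, 60.5, 70.8, 210, 265 and 111 CPM. The 54 h samples thus stood on the high side of the second day, before the maximum at 60 h, and the 66 h samples above both earlier low points.

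The other 7 clock genes did not pass the test. MpTOC1, whose Arabidopsis relative represses morning genes, had 208, 170 and 245 CPM at 66 h and 175, 174 and 161 CPM at 54 h (log2 0.29 ± 0.13, edgeR adjusted p = 0.21), and these groups overlap. MpGI had 100, 91.2 and 99.3 CPM at 66 h and 88.1, 89.0 and 88.4 CPM at 54 h (log2 0.13 ± 0.07, edgeR adjusted p = 0.33). These groups do not overlap, which is also the case for 22.3% of all tested genes. MpELF3 averaged 171 ± 34 CPM at 66 h and 172 ± 15 CPM at 54 h, and MpELF4 73.4 ± 16 CPM at 66 h and 70.5 ± 9.2 CPM at 54 h (SD, n = 3 each). The log2 differences of MpELF4, of the blue-light F-box gene MpFKF, of the GARP-family factor MpGARP7 and of the single-repeat MYB gene Mp1R-MYB11 were 0.05, 0.04, 0.13 and −0.12.

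Among 15 tested light signalling genes 4 were lower (26.7%, beside 4.61% of all tested genes) and 1 was higher (6.67%, beside 2.16%). The list median was −0.12. MpBBX1, a B-box zinc finger gene of a family whose Arabidopsis members act in light signalling, had the lowest adjusted p of all genes in the comparison. It had 21.3, 19.7 and 19.7 CPM at 66 h and 82.6, 77.1 and 81.6 CPM at 54 h. The libraries of each time lay close together and far from those of the other, and the fall was 3.96-fold (log2 −1.99 ± 0.11, edgeR adjusted p = 1.5e-10). MpBBX6, of the same family, moved the other way, with 18.9, 17.4 and 15.4 CPM at 66 h and 8.31, 6.12 and 8.98 CPM at 54 h (log2 1.15 ± 0.19, edgeR adjusted p = 6.8e-04). The other B-box genes did not pass: MpBBX2, MpBBX3, MpBBX4 and MpBBX5 had log2 differences of −0.66, 0.06, 0.05 and 0.03, with MpBBX2 near 1 CPM in all 66 h libraries.

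MpDET1, whose Arabidopsis counterpart restrains light responses together with COP10 and DDB1 and which the title of the series names, was lower at 66 h. Its level was 55.5, 55.6 and 71.5 CPM at 66 h and 110, 108 and 115 CPM at 54 h, without overlap. The fall was −0.87 ± 0.10 on the log2 scale (edgeR adjusted p = 1.2e-05). Its partners MpDDB1 and MpCOP10 were not called, with log2 differences of 0.19 and 0.02. MpCOP1, a ubiquitin ligase gene of the same repressor system, had 57.9, 58.4 and 63.7 CPM at 66 h and 77.3, 77.2 and 74.2 CPM at 54 h (log2 −0.35 ± 0.09, edgeR adjusted p = 0.016). That call was lost without 66 h replicate 1, without 54 h replicate 1 and in a fit of the 66 h and 54 h libraries alone. MpSPA1, the partner of COP1 in Arabidopsis, was not called (log2 −0.12). MpCDF, a DOF factor gene whose Arabidopsis relatives repress flowering genes, had 23.8, 17.6 and 28.1 CPM at 66 h and 56, 41.8 and 53 CPM at 54 h (log2 −1.10 ± 0.16, edgeR adjusted p = 1.7e-04). All 4 called falls of the list were without overlap between the times, which calling on the same libraries favours.

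Among 4 tested photoreceptor genes the phototropin gene MpPHOT, for a receptor of blue light, was lower at 66 h, with 215, 198 and 211 CPM against 304, 288 and 283 CPM at 54 h (log2 −0.49 ± 0.10, edgeR adjusted p = 0.0041). The phytochrome gene MpPHY, the cryptochrome gene MpCRY and the UV-B receptor gene MpUVR8 were not called, with log2 differences of −0.08, 0.09 and 0.17. MpSIG5 encodes a sigma factor of the plastid RNA polymerase, and its Arabidopsis relative passes nuclear clock timing to chloroplast genes. It had 13.1, 13.6 and 12.8 CPM at 66 h and 48.9, 43.2 and 49.7 CPM at 54 h, a 3.59-fold fall (log2 −1.84 ± 0.15, edgeR adjusted p = 3.6e-08). MpSIG1 and MpSIG2, the other tested members of the list, were not called by edgeR, with log2 differences of 0.29 and 0.33. Both were higher at an unadjusted p under 0.05, a limit that 19.6% of all tested genes passed in either direction. DESeq2 called 1 of them higher and limma-voom 0.

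**Figure D2:**
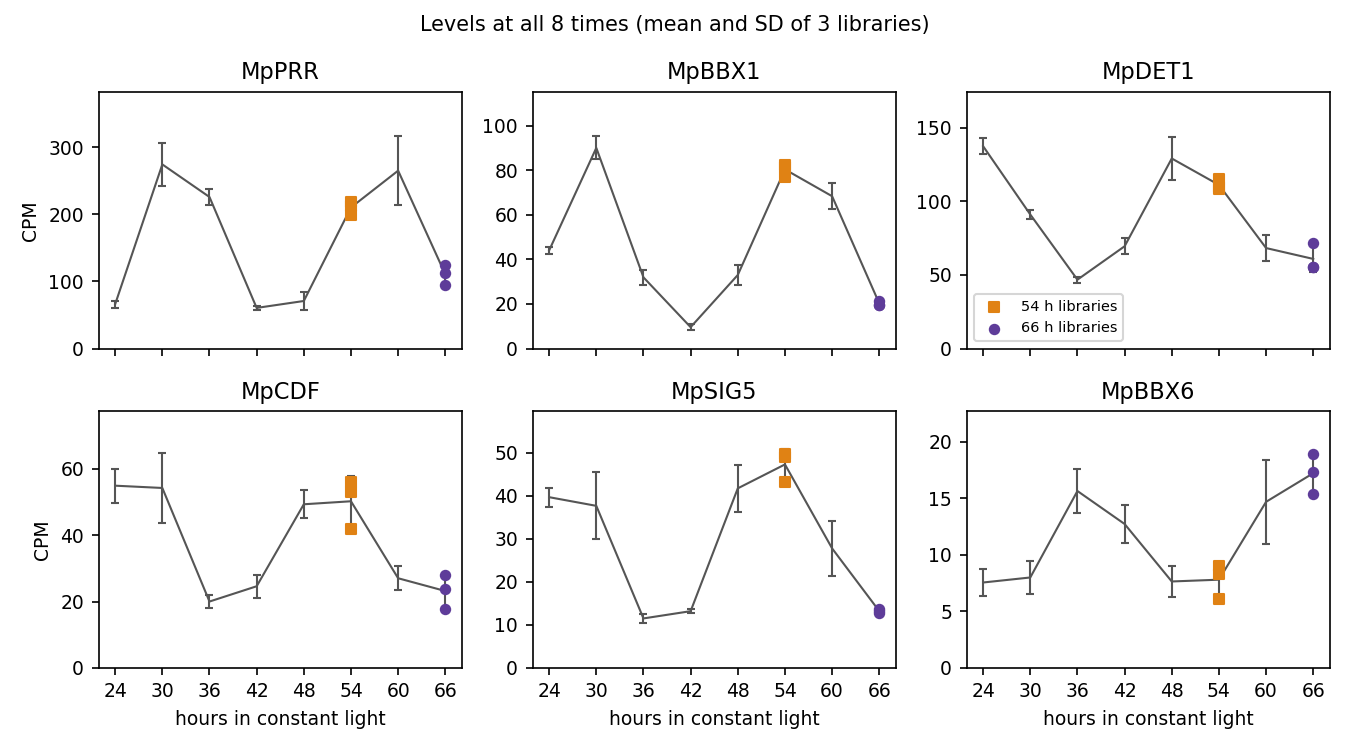
CPM of MpPRR, MpBBX1, MpDET1, MpSIG5, MpCDF and MpBBX6 at all 8 times (horizontal, hours in constant light); lines join means with SD of 3 libraries, and the single libraries of 54 h (orange squares) and 66 h (purple circles) are drawn. The 66 h libraries lie below the 54 h libraries for 5 of these genes and above them for MpBBX6.

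The 12 largest rises come from the called genes that have a symbol, at least 10 CPM on average and no overlap between the times. MpMLS5 led them, with 21.1, 14.8 and 20.6 CPM at 66 h and 4.44, 2.54 and 2.71 CPM at 54 h (5.86-fold, log2 2.55 ± 0.40, edgeR adjusted p = 2.8e-04). The protein phosphatase gene MpPP2C_F3 had 28.7, 22.3 and 16.8 CPM at 66 h and 8.63, 7.73 and 4.82 CPM at 54 h (3.21-fold, edgeR adjusted p = 0.0016). MpPOD26, a class III peroxidase gene, had 41.8, 29.4 and 33.1 CPM at 66 h and 14.5, 12.4 and 13.8 CPM at 54 h (2.57-fold, edgeR adjusted p = 0.0058). These 3 genes were low at the start of the series, with means of 0.660, 2.14 and 4.21 CPM at 24 h, and their 66 h means were 18.8, 22.6 and 34.7 CPM. MpDIR17, a dirigent protein gene of a family that directs the coupling of phenolic radicals in other plants, stood at 483, 466 and 355 CPM at 66 h and 239, 229 and 244 CPM at 54 h (log2 0.87 ± 0.11, edgeR adjusted p = 2.4e-05). Further rises among the 12 were in MpEXL1 (2.12-fold), the family 19 glycoside hydrolase gene MpGH19.9 (1.81-fold), the transporter gene MpABCG20 (1.80-fold) and MpNPF14 (1.64-fold). The call of MpGH19.9 was lost without 66 h replicate 1 or 54 h replicate 3, and that of MpNPF14 without 66 h replicate 1 or without any 1 of the 54 h libraries. That of MpABCG20 was lost in a fit of the 6 libraries alone (edgeR adjusted p = 0.134). MpBBX6, MpLOX14, MpLOX2 and MpCYP74N1 complete the set and are described with their groups.

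The 12 largest falls under the same rule included MpBBX1, MpSIG5, MpCDF and MpPRR. MpCYP827A1, a cytochrome P450 gene, had 26.6, 29.9 and 33.8 CPM at 66 h and 71.3, 61.9 and 79.9 CPM at 54 h (2.36-fold, log2 −1.24 ± 0.15, edgeR adjusted p = 1.1e-05). MpPPR_73, of the pentatricopeptide repeat family that binds organelle RNA, had 110, 104 and 116 CPM at 66 h and 261, 216 and 245 CPM at 54 h (2.19-fold, edgeR adjusted p = 1.4e-05). MpPKC8 had 26.2, 23.6 and 25.0 CPM at 66 h and 54.9, 56.2 and 52.2 CPM at 54 h (2.18-fold, edgeR adjusted p = 7.4e-07). In each of these 3 genes every 66 h library lay well below the lowest 54 h library. MpMDHAR3, a monodehydroascorbate reductase gene that serves the recycling of ascorbate, had 53.9, 63.6 and 41.6 CPM at 66 h and 110, 113 and 93.6 CPM at 54 h (log2 −1.00 ± 0.14, edgeR adjusted p = 1.1e-04). MpBHLH7 and the transporter gene MpABCB6 fell 1.94-fold and 1.89-fold. The call of MpABCB6 was lost without 66 h replicate 2, without 54 h replicate 3 and in a fit of the 66 h and 54 h libraries alone.

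**Figure D3:**
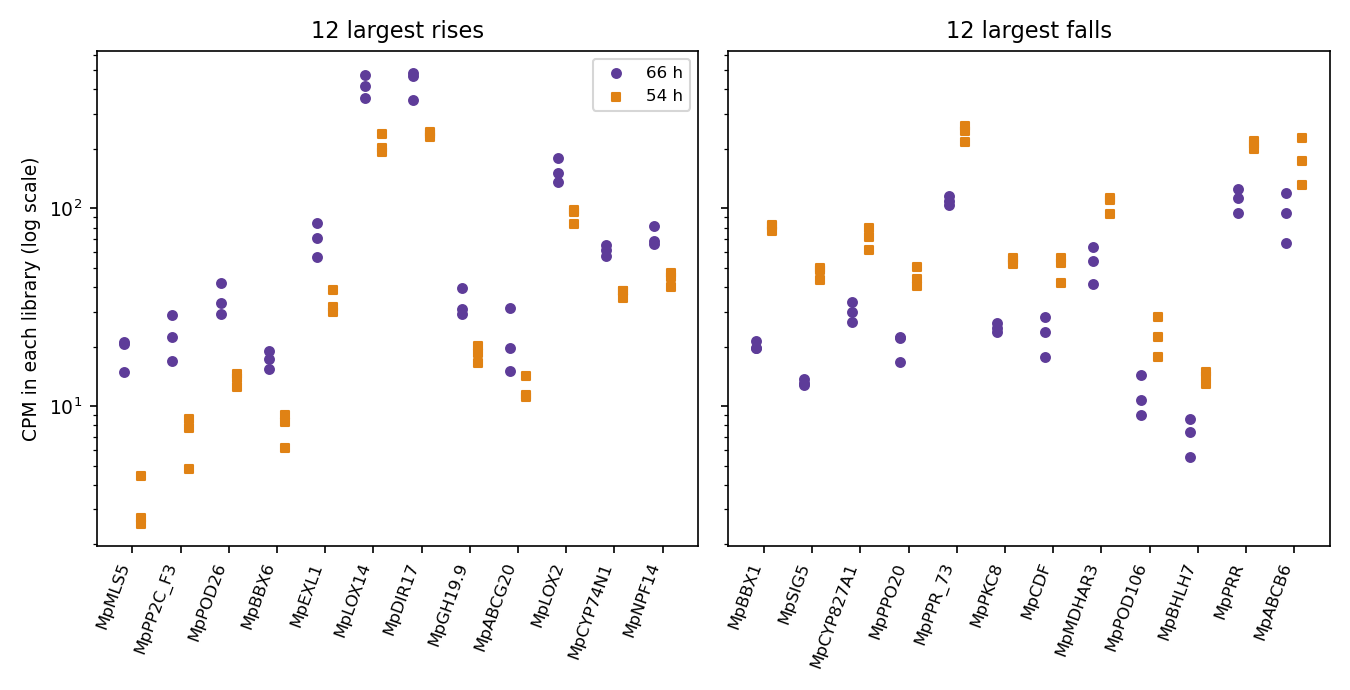
CPM in each library (log scale) for the 12 largest rises (left panel) and the 12 largest falls (right panel) among called genes with a symbol, at least 10 CPM on average and no overlap; purple circles are the 3 libraries of 66 h and orange squares the 3 of 54 h. The libraries of a time lie furthest apart for MpABCG20 at 66 h, with 15.0 to 31.2 CPM.

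Among enzymes that oxidise phenolic compounds, many polyphenol oxidase and peroxidase genes were lower at 66 h. Polyphenol oxidases turn phenols into quinones, and laccases are copper enzymes with similar substrates. The list has 57 members, and 42 passed the filter on low counts. Of these 13 (31.0%, beside 4.61% of all tested genes) were lower at 66 h and 0 were higher, with a median log2 difference of −0.45. At an unadjusted p under 0.05, 2 were higher in edgeR, a limit that 19.6% of all tested genes passed in either direction. DESeq2 and limma-voom called 0 higher. The groups did not overlap for 12 of the 13, which calling on the same libraries favours. MpPPO20 had 22.4, 16.6 and 22.0 CPM at 66 h and 44, 40.5 and 50.6 CPM at 54 h (log2 −1.13 ± 0.22, edgeR adjusted p = 0.0021). MpPPO55 had 25.1, 28.9 and 18.6 CPM at 66 h and 41.1, 36.6 and 45.4 CPM at 54 h (log2 −0.77 ± 0.13, edgeR adjusted p = 8.5e-04). MpPPO38 had 6.54, 6.41 and 5.41 CPM at 66 h and 12.1, 13.7 and 14.1 CPM at 54 h (log2 −1.12 ± 0.18, edgeR adjusted p = 3.4e-04). The 13 called members had their lowest mean of all 8 times at 66 h. They were chosen for being lower at 66 h than at 54 h, which favours this, and other members were not counted. For 8 of the 13, 54 h replicate 3 was the highest 54 h library. Without that library 6 members were called lower, without 66 h replicate 1 it was 8, and in a fit of the 6 libraries alone it was 3. MpPPO56, MpPPO14 and MpPPO72 follow each other in the identifiers Mp6g19020 to Mp6g19040 and were all lower, and as copies of 1 family they may share reads. Their calls were all lost without 54 h replicate 3, and those of MpPPO56 and MpPPO72 also without 66 h replicate 1, 66 h replicate 3 or 54 h replicate 1.

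Class III peroxidases are secreted enzymes that act on phenols and wall polymers. Of 164 members 119 were tested, 21 (17.6%, beside 4.61% of all tested genes) were lower and 2 (1.68%, beside 2.16%) were higher at 66 h, and the median log2 difference was −0.38. MpPOD99 had 5.34, 4.48 and 3.73 CPM at 66 h and 9.50, 9.88 and 14.9 CPM at 54 h (log2 −1.33 ± 0.18, edgeR adjusted p = 7.1e-05). MpPOD63 had 3.36, 2.41 and 3.53 CPM at 66 h and 9.75, 7.31 and 14.2 CPM at 54 h (log2 −1.72 ± 0.24, edgeR adjusted p = 8.2e-05). MpPOD106 had 14.3, 10.7 and 9.03 CPM at 66 h and 22.4, 17.8 and 28.2 CPM at 54 h (log2 −1.00 ± 0.17, edgeR adjusted p = 7.3e-04). In these examples 54 h replicate 3 stood highest, as it did for 17 of the 21. Without it 8 members were called lower, without 66 h replicate 2 it was 12, without 66 h replicate 3 it was 13, and without the 3 libraries rich in MpVg01240 it was 12. In a fit of the 6 libraries alone it was 10. The mean at 66 h was the lowest of the 8 times for 19 of the 21, which their choice as lower at 66 h than at 54 h favours. The higher members were MpPOD26 and MpPOD133, the second of which stayed under 1 CPM in all 6 libraries. MpPOD104, MpPOD105 and MpPOD106 are neighbours in Mp5g13820 to Mp5g13840 and may share reads. The calls of MpPOD104, MpPOD105 and MpPOD133 were each lost without 66 h replicate 1, 66 h replicate 2, 54 h replicate 2 or 54 h replicate 3, and that of MpPOD105 also without 66 h replicate 3.

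The list of phenylpropanoid and flavonoid synthesis, which supplies phenolic substrates, had 9 lower and 2 higher members among 100 tested, with a median of −0.07. These are 9% lower, beside 4.61% of all tested genes, and 2% higher, beside 2.16%. MpC4H1, a cinnamate 4-hydroxylase gene at an early step of the pathway, had 185, 183 and 190 CPM at 66 h and 270, 258 and 264 CPM at 54 h (log2 −0.50 ± 0.09, edgeR adjusted p = 0.0016). Mp4CL2, whose family activates hydroxycinnamic acids, was higher, with 120, 122 and 100 CPM at 66 h and 94.6, 92.5 and 78.9 CPM at 54 h (log2 0.36 ± 0.10, edgeR adjusted p = 0.029). The glycosyltransferase gene MpUGT35 had 24.6, 20.8 and 21.7 CPM at 66 h and 37.4, 34 and 41.4 CPM at 54 h (log2 −0.74 ± 0.14, edgeR adjusted p = 0.0013). The call of Mp4CL2 was lost without 66 h replicate 1, 66 h replicate 2 or 54 h replicate 3. MpPKS/CHS20, of the polyketide and chalcone synthase family, fell by 0.83 on the log2 scale, the 1 called member of the 20 tested in that family. Dirigent proteins had 1 higher (MpDIR17) and 1 lower (MpDIR27) of 40 tested, each 2.5%, beside 2.16% higher and 4.61% lower of all tested genes. The call of MpDIR27 was lost without 66 h replicate 1 or without any 1 of the 54 h libraries.

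Lipoxygenases add oxygen to polyunsaturated fatty acids, and CYP74 enzymes convert the resulting hydroperoxides. In the list of lipoxygenases and the jasmonate pathway, 3 of 19 tested members were higher (15.8%, beside 2.16% of all tested genes) and 2 were lower (10.5%, beside 4.61%). MpLOX14 was the most abundant of the 3, with 418, 360 and 471 CPM at 66 h and 201, 239 and 192 CPM at 54 h (1.97-fold, log2 0.98 ± 0.12, edgeR adjusted p = 1.2e-05). MpLOX2 had 179, 135 and 151 CPM at 66 h and 98.2, 82.9 and 96.0 CPM at 54 h (1.68-fold, edgeR adjusted p = 6.4e-04). MpLOX16 was a gene of low level, with 7.60, 7.99 and 6.3 CPM at 66 h and 1.71, 1.84 and 1.15 CPM at 54 h (log2 2.21 ± 0.37, edgeR adjusted p = 6.4e-04). All 3 were without overlap and were called higher in each of the 6 fits that left out 1 library. In the same direction, MpCYP74N1 had 65.6, 61.3 and 57.2 CPM at 66 h and 38.2, 35 and 38.1 CPM at 54 h (log2 0.73 ± 0.12, edgeR adjusted p = 5.0e-04). MpLOX4 and MpLOX11 were lower at 66 h, by −0.85 ± 0.20 and −0.56 ± 0.15 on the log2 scale. MpLOX4 had 23.9, 18.7 and 20.8 CPM at 66 h and 43.1, 33.9 and 37.9 CPM at 54 h, and its call was lost without 54 h replicate 1, that of MpLOX11 without 66 h replicate 1, 66 h replicate 2 or 54 h replicate 3. The family therefore held calls in both directions at the same time of day.

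Plasma membrane proton pumps (HA genes) energise uptake of ions and nutrients. Of 17 tested pumps 5 were lower (29.4%, beside 4.61% of all tested genes) and 0 were higher (beside 2.16%) at 66 h, with a median log2 difference of −0.48 and 16 of 17 below 0. None was higher at an unadjusted p under 0.05 in edgeR, or was called higher by DESeq2 or limma-voom. MpHA14 had 198, 189 and 208 CPM at 66 h and 376, 336 and 400 CPM at 54 h (log2 −0.90 ± 0.11, edgeR adjusted p = 1.7e-05). The most abundant pump gene, MpHA3, had 809, 798 and 580 CPM at 66 h and 1101, 1011 and 943 CPM at 54 h (log2 −0.48 ± 0.12, edgeR adjusted p = 0.013). Both were without overlap, but the call of MpHA3 was lost without 66 h replicate 3 and without 54 h replicate 1. MpHA5 fell by 0.85, MpHA13 by 0.75 and MpHA2 by 0.62 on the log2 scale. MpHA5 and MpHA14 are neighbours in the identifiers Mp3g12380 and Mp3g12390 and may share reads. The calls of MpHA5 and MpHA13 were lost without 66 h replicate 1 or 54 h replicate 3, that of MpHA13 also without 66 h replicate 2 or 54 h replicate 1, and that of MpHA2 without 66 h replicate 3, 54 h replicate 1 or 54 h replicate 3. Without 54 h replicate 1 or 54 h replicate 3, 2 pumps were called lower, and 3 without 66 h replicate 1, without 66 h replicate 3 or without the 3 libraries rich in MpVg01240. In a fit of the 6 libraries alone 1 was called, MpHA14. Summed over the 17 pumps, the level was 1299.5 to 1470 CPM in the 66 h libraries and 1871.5 to 2098 CPM in the 54 h libraries.

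Ammonium transporters had 3 lower members of 6 tested, beside 4.61% of all tested genes: MpAMT1.4, MpAMT2.1 and MpAMT2.2, at levels under 17 CPM. MpAMT1.4 had 5.41, 3.79 and 6.86 CPM at 66 h and 11.9, 7.16 and 16 CPM at 54 h (log2 −1.11 ± 0.28, edgeR adjusted p = 0.019). Fits without 1 library called 0 to 2 of them, and 0 without 66 h replicate 1, 66 h replicate 2 or 54 h replicate 1, as in a fit of the 6 libraries alone. The call of MpAMT1.4 was also lost without 54 h replicate 3, that of MpAMT2.1 without 66 h replicate 3 or 54 h replicate 2, and that of MpAMT2.2 without 54 h replicate 2 or 3. The 3 called rises of ion and nutrient transport were in the NPF family of nitrate and peptide transporters. MpNPF9 had 5.81, 6.34 and 6.03 CPM at 66 h and 2.55, 3.73 and 1.42 CPM at 54 h (log2 1.23 ± 0.26, edgeR adjusted p = 0.0041). Its call was lost in a fit of the 6 libraries alone. MpNPF19 and MpNPF14 were higher by 0.49 and 0.71 on the log2 scale, and both calls were lost without 66 h replicate 1 or 54 h replicate 3, that of MpNPF14 also without 54 h replicate 1 or 2. The called pumps were lower and the called NPF transporters higher.

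Isoprenoid synthesis leads to sterols, carotenoids and terpenes. This list and those of carotenoids, desaturases, pumps, ammonium transporters and sigma factors were put together after values were seen. Of 31 tested sterol, isoprenoid and terpene genes 5 were lower (16.1%, beside 4.61% of all tested genes) and 1 was higher (3.23%, beside 2.16%). MpSQS1, a squalene synthase gene at the entry to sterol synthesis, had 114, 110 and 117 CPM at 66 h and 209, 200 and 211 CPM at 54 h (log2 −0.86 ± 0.07, edgeR adjusted p = 3.2e-08). MpIDS4, an isoprenyl diphosphate synthase gene, had 69.6, 77.6 and 76.2 CPM at 66 h and 132, 121 and 132 CPM at 54 h (log2 −0.79 ± 0.12, edgeR adjusted p = 2.0e-04). The remaining lower members were MpHMG, MpCYP716X1 and MpCPT6, with log2 differences of −0.41, −0.31 and −1.43. The call of MpCYP716X1 was lost in all 6 fits that left out 1 library, and that of MpCPT6 in 5 of them, all but the fit without 66 h replicate 1. In a fit of the 6 libraries alone 2 members of the list were called lower. The higher member, the terpene synthase gene MpMTPSL22, had 22, 4 and 35 counts at 66 h and 0 counts in each 54 h library, where 3 counts would be 0.0778 to 0.105 CPM. Its call was lost without 66 h replicate 1, without 66 h replicate 3 and without any 1 of the 54 h libraries.

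In carotenoid and abscisic acid synthesis MpABA1, named after zeaxanthin epoxidase of Arabidopsis, was lower, with 154, 159 and 158 CPM at 66 h and 287, 257 and 286 CPM at 54 h (log2 −0.82 ± 0.11, edgeR adjusted p = 3.1e-05). MpABA4 and the lycopene cyclase-like gene MpLCY-like1 were higher in the same list of 5 tested genes, and the call of MpABA4 was kept without 66 h replicate 3 and lost without any 1 of the other 5 libraries. MpLCY-like1 had 150, 140 and 141 CPM at 66 h and 104, 102 and 105 CPM at 54 h (log2 0.47 ± 0.08, edgeR adjusted p = 3.6e-04). Fatty acid desaturases had 3 lower of 12 tested (25%, beside 4.61% of all tested genes), MpFAD5, MpFAD10 and MpFAD11, by −0.37 to −0.46 on the log2 scale. MpFAD5 had 285, 257 and 251 CPM at 66 h and 356, 342 and 350 CPM at 54 h (edgeR adjusted p = 0.0024). The calls of MpFAD10 and MpFAD11 were lost without 66 h replicate 1 or 54 h replicate 3, that of MpFAD10 also without 66 h replicate 3 and that of MpFAD11 without 54 h replicate 1. In a fit of the 6 libraries alone 0 of the 3 were called, with an edgeR adjusted p of 0.073 for MpFAD5, and without the 3 libraries rich in MpVg01240 only MpFAD5 was. The catalase gene MpCAT2, which removes hydrogen peroxide, was among the most abundant called genes, with 1850, 1996 and 1466 CPM at 66 h and 2657, 2354 and 2533 CPM at 54 h (log2 −0.51 ± 0.15, edgeR adjusted p = 0.038). Its call was lost without 66 h replicate 1 or 3 and without 54 h replicate 1 or 3.

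Chloroplast functions had few genes with a symbol. Of 5 tetrapyrrole genes 2 were lower (40%, beside 4.61% of all tested genes). They were MpGUN4, which stimulates magnesium chelatase, and MpCHLI1/2-like, which encodes a subunit of that enzyme. MpGUN4 had 158, 150 and 129 CPM at 66 h and 229, 191 and 244 CPM at 54 h (log2 −0.61 ± 0.14, edgeR adjusted p = 0.010), and its call was lost without 66 h replicate 3 or 54 h replicate 3. The aldolase genes MpFBA1 and MpFBA4 were the 2 lower genes of 5 in the Calvin cycle list (40%, beside 4.61% of all tested genes). The call of MpCHLI1/2-like was lost without 66 h replicate 1 or 3 and without 54 h replicate 1 or 3, and that of MpFBA1 without any 1 of the 66 h libraries and without 54 h replicate 1 or 3. MpFBA4 had 293, 316 and 277 CPM at 66 h and 462, 391 and 451 CPM at 54 h (log2 −0.56 ± 0.12, edgeR adjusted p = 0.0043). Pentatricopeptide repeat genes had 4 higher (5.56%, beside 2.16% of all tested genes) and 2 lower (2.78%, beside 4.61%) of 72. The higher calls were 0 without 66 h replicate 3 or in a fit of the 6 libraries alone. They were 2 without 66 h replicate 1, 54 h replicate 1 or 54 h replicate 3.

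The auxin list and the list of other hormones each held 1 higher and 1 lower gene. The shares were 6.67% each way in the first and 2.56% each way in the second. Over all tested genes 2.16% were higher and 4.61% lower. Among 15 auxin genes the auxin efflux carrier gene MpPIN1 was higher (log2 0.37 ± 0.10, edgeR adjusted p = 0.030) and MpGH3A, whose family conjugates auxin with amino acids, was lower. MpGH3A had 67.4, 55.3 and 56.6 CPM at 66 h and 108, 90.7 and 123 CPM at 54 h (log2 −0.84 ± 0.15, edgeR adjusted p = 7.9e-04). Of 39 genes of cytokinin, abscisic acid, ethylene and strigolactone-like signalling, the response regulator gene MpRRA was higher and the abscisic acid receptor gene MpPYL1 lower, by 0.28 and −0.45 on the log2 scale. The calls of MpPIN1, MpRRA and MpPYL1 were lost without 66 h replicate 1, without 66 h replicate 3 and without 54 h replicate 3. Those of MpPIN1 and MpRRA were also lost without 54 h replicate 2, and that of MpPYL1 without 66 h replicate 2 or 54 h replicate 1.

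The transcription factor lists below held 0 to 2 calls each. Of 13 bZIP genes 2 were lower (15.4%, beside 4.61% of all tested genes), MpBZIP3 and MpBZIP9. MpBZIP3 had 45.3, 39.6 and 39.9 CPM at 66 h and 63.2, 62.4 and 59.4 CPM at 54 h (log2 −0.57 ± 0.08, edgeR adjusted p = 1.5e-04). The call of MpBZIP9 was lost without 66 h replicate 2 or 3 and without any 1 of the 54 h libraries. Among 37 bHLH genes 2 were lower (5.41%, beside 4.61% of all tested genes). MpBHLH7, 1 of these 2, had 7.35, 5.51 and 8.60 CPM at 66 h and 12.9, 14.2 and 14.9 CPM at 54 h (log2 −0.96 ± 0.19, edgeR adjusted p = 0.0023). Single genes were called in the AP2/ERF (MpAP2L2, lower), R2R3-MYB (MpR2R3-MYB5, higher), WRKY and NAC (MpNAC5, higher) and GRAS, TCP, SPL and homeodomain lists (MpGRAS1, higher). MpAP2L2 was 5.88% of 17 tested, MpR2R3-MYB5 6.67% of 15, MpNAC5 4.76% of 21 and MpGRAS1 1.82% of 55. Over all tested genes 4.61% were lower and 2.16% higher. All 4 of those calls were lost without 66 h replicate 1 and without 54 h replicate 3, and all but that of MpNAC5 without 54 h replicate 2. The calls of MpAP2L2 and MpR2R3-MYB5 were also lost without 54 h replicate 1, the first also without 66 h replicate 2 and the second without 66 h replicate 3. Of 29 other MYB and GARP factors 0 were called by edgeR, DESeq2 or limma-voom, and 2 were higher at an unadjusted p under 0.05.

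Several groups held 0 or 1 called genes, beside 6.77% of all tested genes. Lists of 6 or 7 genes are too small for 0 calls to set them apart from that share. Among 78 receptor-like kinases, 40 autophagy and peroxisome genes, 27 genes of chromatin and small RNA, 24 core histones, 7 reference genes, 6 heat shock chaperones and 6 calcium-dependent and SnRK kinases, none was called by edgeR, and their median log2 differences were −0.01, 0.09, 0.04, 0.09, 0.00, −0.05 and 0.10. At an unadjusted p under 0.05 edgeR placed 12 of the receptor-like kinases, 2 of the autophagy, 2 of the chromatin, 2 of the histone genes and 1 gene of each other group. That limit was passed by 19.6% of all tested genes. DESeq2 called 3 receptor-like kinases lower, and 2 core histones, 1 autophagy or peroxisome gene and 1 reference gene higher, and limma-voom called 2 receptor-like kinases lower and 1 higher. Of 24 cell cycle genes 1 was called higher (4.17%, beside 2.16% of all tested genes), the D-type cyclin gene MpCYCD_2. It had 29.3, 33.7 and 20.7 CPM at 66 h and 19.6, 18.5 and 17.6 CPM at 54 h (log2 0.58 ± 0.16, edgeR adjusted p = 0.030). That call was lost in 5 of the 6 fits that left out 1 library, and was kept without 66 h replicate 3.

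**Figure D4:**
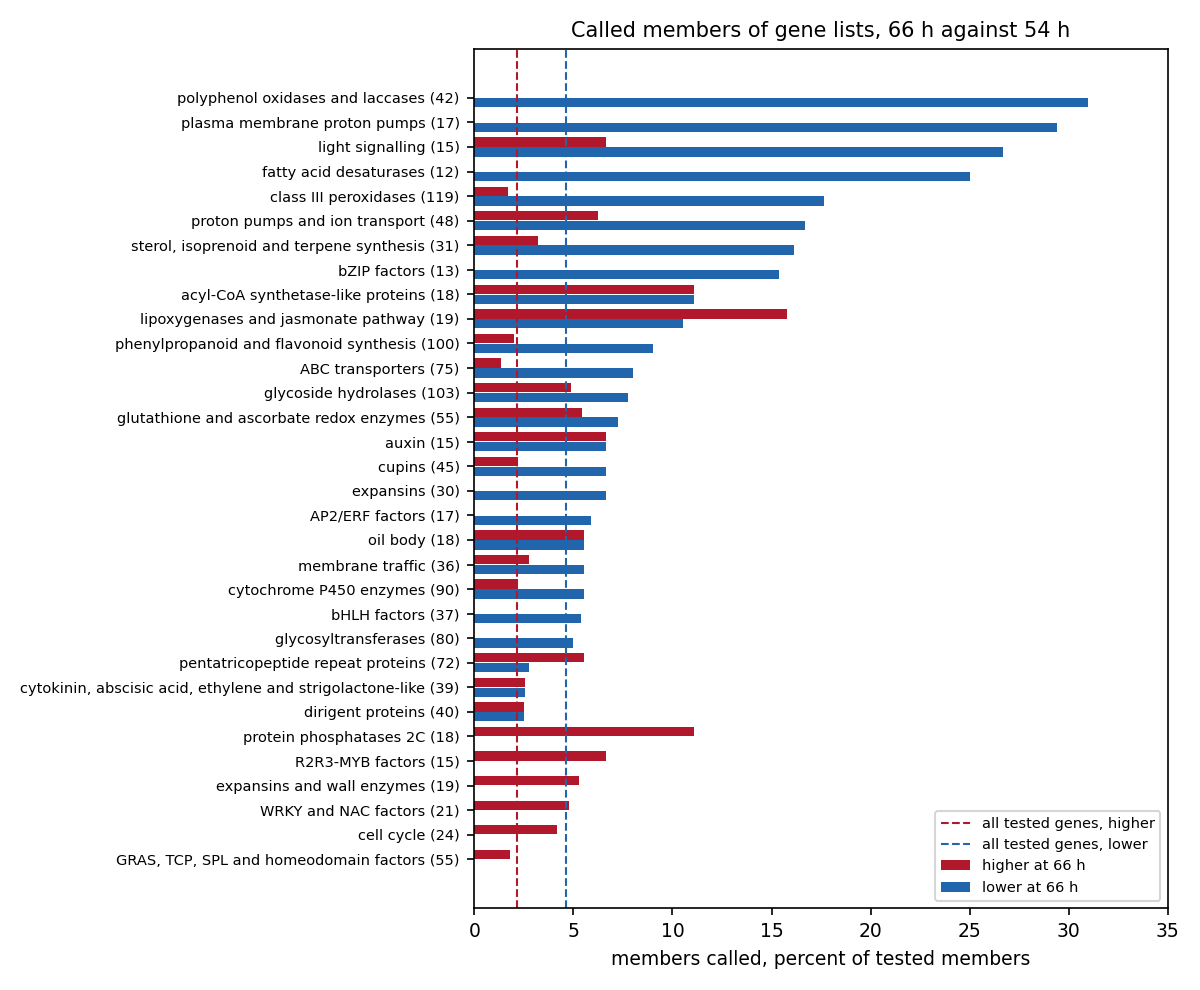
Share of tested members called higher (red) and lower (blue) at 66 h, in percent, for gene lists with at least 10 tested members and at least 1 call (number tested in brackets); dashed lines give the shares over all tested genes, 2.16% higher and 4.61% lower. Polyphenol oxidases and laccases have the longest blue bar, at 31.0%, and lipoxygenases and the jasmonate pathway the longest red bar, at 15.8%.

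The lists of tissue markers held at most 1 call in each direction. The 6 gemma cup genes summed to 366 to 391 CPM at 66 h and 366 to 376 CPM at 54 h with 0 calls. The air pore gene MpNOP1 was not called. Of 18 tested oil body genes 1 was higher (MpMTPSL22) and 1 lower (MpSYP12B), each 5.56%. Over all tested genes 2.16% were higher and 4.61% lower. Both oil body calls were lost in at least 5 of the 6 fits that left out 1 library. The 18 oil body genes summed to 184 to 210 CPM at 66 h and 218 to 237 CPM at 54 h. Their median log2 difference was −0.22, with 12 below 0. These sums were not tested. Of 6 genes for sexual organs and sperm 4 were tested and 0 called by edgeR, DESeq2 or limma-voom. Of these 4, 1 was higher at an unadjusted p under 0.05, as was 1 gemma cup gene. That limit was passed by 19.6% of all tested genes in either direction. MpPRM had 0 counts in all 6 libraries and MpLC7 stayed at or below 0.0340 CPM. No rhizoid marker of the list was found by symbol, and the part of tissue make-up in the results was not tested.

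The same phases 24 h earlier gave more calls. At 42 h against 30 h, 1695 genes were called (11.8%), 796 higher (5.52%) and 899 lower (6.24%). Of the 311 genes higher at 66 h, 281 (90.4%) also had a positive difference at 42 h against 30 h, 164 were called higher there and 1 was called lower. Of the 665 genes lower at 66 h, 558 (83.9%) had a negative difference on the first day, 313 were called lower and 3 were called higher. Over all tested genes the sign was shared by 60.8%. Across the 976 called genes the correlation of the log2 differences was 0.733 (Pearson; Spearman 0.688), and across all tested genes 0.265, with the libraries of a time shared by all genes. The value for called genes pools rises with falls. Within the higher genes it was 0.462 (Spearman 0.584) and within the lower genes 0.498 (Spearman 0.282).

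The gene groups described above had these values on the first day. MpLOX14, MpLOX2 and MpLOX16 were called higher at 42 h against 30 h too, with log2 differences of 1.47, 0.84 and 2.96. MpSIG5, MpCDF, MpDET1 and MpSQS1 were called lower on the first day as well, at −1.51, −1.14, −0.39 and −0.54. Polyphenol oxidases and laccases, by contrast, had 1 lower and 1 higher of 42 tested members at 42 h against 30 h. Over all tested genes 6.24% were lower and 5.52% higher there. The median of the oxidases was 0.16 in place of −0.45, and of the 13 called lower at 66 h 7 had a negative first-day difference. Class III peroxidases had 8 lower and 2 higher of 119 tested members on the first day, beside the same 6.24% and 5.52% of all tested genes. Their median was 0.07 in place of −0.38, and of the 21 called lower at 66 h 18 had a negative first-day difference. The difference between the days was called for 2 of the 42 oxidase genes, MpPPO7 and MpPPO48, and for 1 of the 119 peroxidase genes, MpPOD80. Over all tested genes that share was 0.479%. For the other members of both lists a change between the days was not shown.

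A test of the difference between the days, 66 h over 54 h minus 42 h over 30 h, called 69 genes (0.479%), 33 with a higher and 36 with a lower log2 difference on the second day. Of them 37 were also called at 66 h against 54 h, and 18 had a symbol. MpBBX1 and MpPRR fell on both days and by less on the second: the log2 differences were −1.99 at 66 h against 54 h and −3.23 at 42 h against 30 h for MpBBX1, and −0.92 and −2.18 for MpPRR. Their mean levels were 20.2 CPM at 66 h and 9.59 CPM at 42 h for MpBBX1, and 111 CPM at 66 h and 60.5 CPM at 42 h for MpPRR, while the 54 h and 30 h means were 80.4 and 90.0 CPM for MpBBX1 and 210 and 274 CPM for MpPRR. The difference between the days was 1.25 for MpBBX1 (edgeR adjusted p = 5.2e-04) and 1.26 for MpPRR (edgeR adjusted p = 0.012). At 36 h and 60 h, also 24 h apart, MpBBX1 had means of 32.0 and 68.4 CPM and MpPRR 226 and 265 CPM. Whether later timing or a smaller swing on the second day gave these differences was not tested. Of the 69 genes 23 were called lower at 66 h and had a positive first-day difference. This count of 69 was 2 without 54 h replicate 1, 11 without 54 h replicate 3, 34 without 66 h replicate 3 and 41 without 66 h replicate 1.

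**Figure D5:**
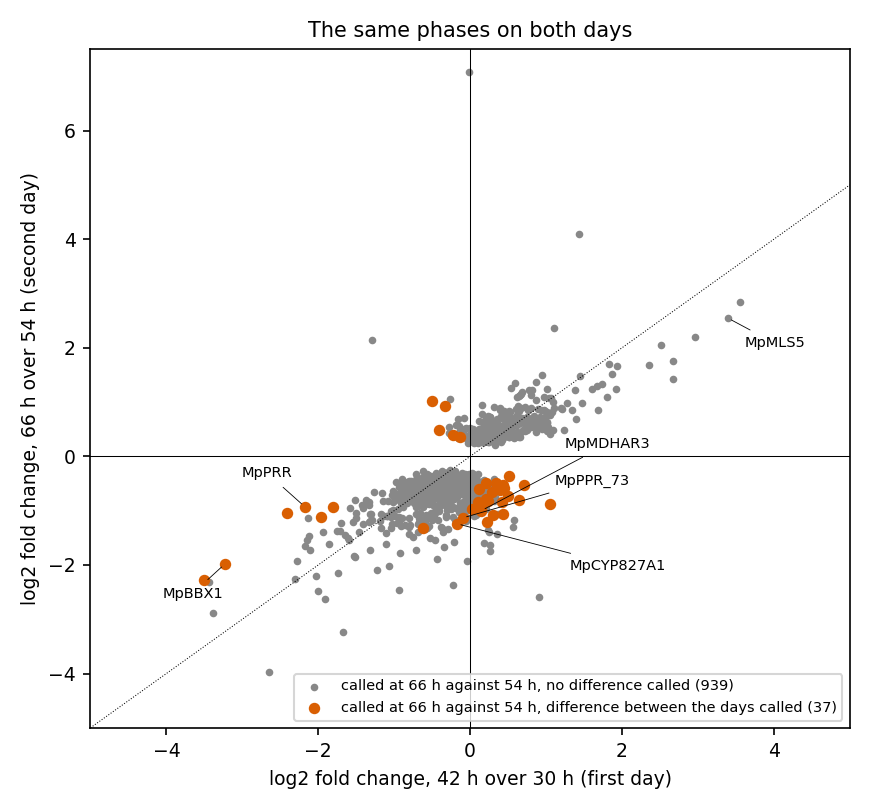
Log2 fold change of 66 h over 54 h (vertical, second day) against that of 42 h over 30 h (horizontal, first day) for the 976 genes called at 66 h against 54 h; orange points are the 37 whose difference between the days was also called, and the dotted line marks equal values. Most points have the same sign on both axes, and MpBBX1 and MpPRR lie above the line, with the smaller fall on the second day.

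Most called genes have no symbol, since 214 of the 976 carry one, and of the rest the 2 largest rises and 2 largest falls under the same limits were singled out after their values were seen. Mp5g06470 had 7.43, 4.82 and 8.31 CPM at 66 h and 39.3, 37.9 and 39 CPM at 54 h (log2 −2.48 ± 0.18, edgeR adjusted p = 1.4e-08). Mp1g10620 had 86.0, 72.5 and 115 CPM at 66 h and 446, 439 and 443 CPM at 54 h (log2 −2.28 ± 0.15, edgeR adjusted p = 2.6e-09). Both fell further than MpBBX1. Mp7g06170 had 687, 671 and 506 CPM at 66 h and 159, 163 and 126 CPM at 54 h (log2 2.06 ± 0.22, edgeR adjusted p = 2.7e-06). Mp3g24880 had 320, 251 and 120 CPM at 66 h and 36.3, 42.6 and 16.7 CPM at 54 h (log2 2.85 ± 0.35, edgeR adjusted p = 1.4e-05), and its libraries varied over a wide range within each time without overlap.

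Some lower genes were neighbours. For 99 of the 665 lower genes (14.9%) the next tested gene in identifier order was lower too, beside 4.61% of all tested genes that were lower. For the 311 higher genes the corresponding number was 17 (5.47%), beside 2.16%. There were 16 runs of 3 or more neighbouring called genes of 1 direction, and every one of the 16 was lower. The longest, of 5 genes from Mp5g06450 to Mp5g06490, holds Mp5g06470, and the runs of peroxidase and polyphenol oxidase genes named above are others. Neighbouring copies and overlapping genes can share reads, and how far these runs rest on shared reads was not tested.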

How the data were processed

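The authors deposited whole-number counts per gene for 24 libraries, not normalized. The libraries were stranded and poly(A)-selected, per the labels' protocols. Which aligner, counter, strand setting and build served is not given in the sources used here. Genes that overlap, antisense partners and near-identical copies may therefore share reads and are uncertain. Names came from a RefSeq table (MpTak2_v7.1) joined on the digits of the locus tag, a join across annotation versions that could misname a renumbered gene. Of 20574 identifiers 17641 matched and 3091 had a symbol, 2572 of them tested.

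The fit used edgeR 4.0.16 in R 4.3.3, with filterByExpr by time at a minimum of 10 counts (14414 genes kept, 6160 set aside), TMM scaling (factors 0.932 to 1.10), 1 mean per time over all 24 libraries, glmQLFit and glmQLFTest, and Benjamini-Hochberg adjustment over all tested genes. The procedure was also run on simulated counts that held no rhythms, which cannot show whether the calls in these data are right. CPM came from edgeR's cpm function. Errors are SE for log2 differences and SD for CPM.

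Named genes were all tested clock, light signalling and photoreceptor genes, the 12 largest rises and 12 largest falls as described, up to 4 called members with the lowest adjusted p in each first list, and the 3 lowest adjusted p for the difference between the days. Other genes with values were picked after these were seen. The comparison, its members and all lists (37 at first, 14 added after values were seen) were chosen with earlier results of these data known. Alternatives were RLE size factors, no filter, the compared times alone (66 h and 54 h, with 42 h and 30 h added for the difference between the days), DESeq2 1.42.0, limma-voom (limma 3.58.1), a replicate block, each library left out, and the 3 libraries rich in MpVg01240 left out. Replicate pairs differed by more than counting noise (chi-square 15.7 to 129 per degree of freedom). Promoter sequence was not analysed here.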

Additional observations from a re-analysis of the deposited data

Results flagged for a closer look

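The difference between the phases changed between the days for 5 of the named genes, by edgeR's test of 66 h over 54 h minus 42 h over 30 h. For MpBBX1 that difference was 1.25 on the log2 scale (adjusted p = 5.2e-04) and for MpPRR 1.26 (adjusted p = 0.012), both falls that were smaller on the second day. The other 3 genes fell on the second day and were not called on the first. MpMDHAR3 had a difference of −1.15 (adjusted p = 0.018), with log2 −1.00 at 66 h against 54 h and 0.15 at 42 h against 30 h. Its mean level was 53 CPM at 66 h, 106 CPM at 54 h, 79.2 CPM at 42 h and 71.4 CPM at 30 h. MpCYP827A1 had a difference of −1.07 (adjusted p = 0.033), with log2 −1.24 on the second day and −0.17 on the first. MpPPR_73 had a difference of −1.03 (adjusted p = 0.024), with log2 −1.13 on the second day and −0.10 on the first. The 8 means of MpPPR_73 from 24 h to 66 h were 275, 137, 30.6, 128, 312, 241, 95.5 and 110 CPM, with the low points at 36 h and 60 h. The calls for MpBBX1 and MpPRR were kept in all 13 alternatives. Those for MpCYP827A1, MpMDHAR3 and MpPPR_73 were lost without 54 h replicate 1, in the fit of the 66 h, 54 h, 42 h and 30 h libraries alone and without the 3 libraries rich in MpVg01240. Those for MpCYP827A1 and MpPPR_73 were also lost without 54 h replicate 3, and that for MpCYP827A1 without 66 h replicate 1.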

How the results depend on the processing

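In a fit of the 66 h and 54 h libraries alone 406 genes were called, 92 higher and 314 lower. In a separate fit of the 66 h, 54 h, 42 h and 30 h libraries the difference between the days was called for 2. Leaving out 1 library gave 504 to 876 calls, 119 to 343 higher and 385 to 643 lower, and 2 to 81 for the difference between the days, which was also 363 with DESeq2, 115 with limma-voom and 5 without the 3 libraries rich in MpVg01240. These fits hold fewer samples or, for DESeq2 and limma-voom, another model; beyond that the cause was not tested. With a replicate block 952 genes were called, and 45 for the difference between the days. Other settings stayed within 1.5 times of the reported counts. Same-numbered libraries of 66 h and 54 h were compared on log2 expression minus the mean of each time. Their correlations were −0.07, −0.04 and −0.41, and 0 of 3 libraries of 66 h correlated best with their own number. No pairing by number was seen, but 3 libraries a time cannot settle it. Of the 68 called named genes 36 kept their call in all 13 alternatives and 32 lost it in at least 1, mostly in fits with fewer libraries. Over 1142 comparisons of a named gene with an alternative, 151 lost a call and 0 reversed. With 3 libraries a time, at depths of 14929708 to 59194999 counts, a gene that was not called is not shown to be equal at both times.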

Other observations

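Some further gene groups were read after their values were seen. Among glycoside hydrolases, which cut bonds between sugars, 5 of 103 tested members were higher and 8 lower at 66 h, beside 2.16% higher and 4.61% lower over all tested genes. Without 54 h replicate 3 the counts were 0 higher and 4 lower, and without 66 h replicate 1 they were 1 higher and 5 lower. Without 54 h replicate 2 they were 3 higher and 6 lower, and without 66 h replicate 3 or 54 h replicate 1 they were 5 higher and 5 lower. In a fit of the 6 libraries alone they were 4 higher and 3 lower, and with DESeq2 7 higher and 13 lower. MpGH1.3 of this group had 41.8, 40.7 and 55.4 CPM at 66 h and 84.8, 89.1 and 77.5 CPM at 54 h (log2 −0.86 ± 0.12, edgeR adjusted p = 1.1e-04). Expansins, which loosen walls, had 2 of 30 tested members lower (6.67%, beside 4.61% of all tested genes) and a median log2 difference of −0.40. Of these 1 was lower without 66 h replicate 3, 54 h replicate 1 or 54 h replicate 3. None was higher by edgeR, DESeq2 or limma-voom, and 0 were higher at an unadjusted p under 0.05.

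Single genes of other functions were also called lower. MpSMR, a cell cycle inhibitor gene, had 12.7, 9.85 and 12.5 CPM at 66 h and 20.0, 19.6 and 21.0 CPM at 54 h (log2 −0.78 ± 0.14, edgeR adjusted p = 9.3e-04). The potassium channel gene MpTPK2 had 14.9, 16.5 and 15.7 CPM at 66 h and 24.8, 27.9 and 26.0 CPM at 54 h (log2 −0.75 ± 0.12, edgeR adjusted p = 3.6e-04). MpEDS5 had 36.1, 39.6 and 36.0 CPM at 66 h and 56.6, 57.6 and 63.4 CPM at 54 h (log2 −0.67 ± 0.07, edgeR adjusted p = 4.7e-06). In each of the 3 genes the times did not overlap. They were also called lower at 42 h against 30 h, MpSMR by a log2 difference of −0.64, MpTPK2 of −0.65 and MpEDS5 of −0.52. The calls of the 3 genes and of MpGH1.3 at 66 h against 54 h were kept in all 13 alternatives.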
